A study of Arabidopsis thaliana with 36 samples.

Results

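The cauline leaf and the rosetta leaf (spelled as in the labels) of Arabidopsis thaliana were compared site by site for pseudouridine (Ψ) in rRNA and tRNA. Every deposited site with a Ψ fraction in both leaf types entered the comparison, which took in 186 of 186 rRNA sites and 348 of 349 tRNA sites, or 534 of 535 in all. The Ψ fraction is the share of RNA molecules that carry Ψ at a base, from 0 to 1. The plants were wild type of the Col-0 accession, raised on agar plates and then moved to soil. Rosetta leaves were taken after 30 days of growth and cauline leaves once the plants had flowered, so leaf type and plant age cannot be told apart here. BID-seq of total RNA was run on 9 tissues with 36 libraries, of which 8 came from leaves, with 2 bisulfite-treated and 2 untreated input libraries for each leaf type. The authors pooled both replicates into 1 fraction per site and tissue, so no replicate error, read depth or test stands behind any value below, and a difference is described by its size alone. A TRUE or FALSE flag of the authors says whether a site passed their filter in a tissue. The leaf labels could not be checked against marker genes, because only rRNA and tRNA sites were tabulated.

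Pseudouridine is an isomer of uridine in which the base is joined to the sugar through carbon, which adds a hydrogen bond donor and stiffens the RNA backbone. In eukaryotic cytoplasmic rRNA the positions are chosen by box H/ACA guide RNAs, while stand-alone pseudouridine synthases modify tRNA and the rRNA of bacteria and organelles. In tRNA each synthase family serves particular positions, such as the uridine of the T loop that nearly all tRNAs carry. Rosette leaves form at the base of the vegetative plant and cauline leaves on the flowering stem. BID-seq reads Ψ as a deletion, because bisulfite forms an adduct on Ψ that reverse transcriptase skips.

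Of the 9 rRNA sites that differed by at least 0.1 between the leaf types, 5 lay in helix 69 of the large ribosomal subunit, a hairpin at the bridge between the subunits whose loop carries Ψ in bacteria and eukaryotes. The following 25-base windows, in DNA letters, show this hairpin in the 3 genomes, with capitals at the bases listed as Ψ sites. They were read from the RefSeq assembly TAIR10.1 at chr2:8378-8402 (plus strand), chrPt:106606-106630 (plus strand) and chrMt:141730-141754 (minus strand).
nuclear helix 69: acggtgggagTaacTaTgacTcTct
chloroplast helix 69: acggcggccgTaacTaTaacggtcc
mitochondrial helix 69: acggcggcagTaacTcTaacTgtcc
The chloroplast and mitochondrial windows shared 22 of 25 bases, the nuclear and mitochondrial 19, and the nuclear and chloroplast 18. Window bases 11, 15 and 17 were Ψ sites in all 3. A further 2 windows show nuclear sites outside helix 69 that also differed, at chr2:7372-7392 downstream of the 5.8S rRNA, in the unannotated 25S part, and at chr2:3730-3750 in the 18S gene AT2G01010, both on the plus strand. Here the centre base is the Ψ site.
nuclear 5516: aggacggtggTcatggaagtc
nuclear 1874: catatgcttgTctcaaagatt
Positions such as 5516 count along the authors' own rRNA reference.

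In tRNA the differing sites lay mostly in the anticodon arm. The following arms run from standard tRNA position 27 to 43, with listed Ψ sites in capitals, and carry the first base pairs of the anticodon stem, where many of the differences lay. Each was read from annotated TAIR10.1 tRNA genes with that anticodon, 13 for Trp-CCA-1, 14 for Asn-GTT-1, 2 for Asn-GTT-4 in the chloroplast, 5 for Thr-CGT-1 and 2 for Tyr-GTA-1-a.
Trp-CCA-1: TctgactccagaTcaga
Asn-GTT-1: Tgtggctgttaaccaca
Asn-GTT-4: gTcggctgttaacTgat
Thr-CGT-1: TtcgctTcgTaagcgaa
Tyr-GTA-1-a: aaggacTgtaaaTcctt
The arm of Thr-CGT-2, from the single gene AT2G03660 at chr2:1113984-1114055 on the minus strand, has the same bases as that of Thr-CGT-1. The arm of Trp-CCA-2 is the same as that of Trp-CCA-1, and both names matched the same number of genes, so reads of such pairs may be shared.

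Most sites had nearly the same Ψ fraction in both leaf types. The median difference, cauline leaf minus rosetta leaf, was 0 in rRNA and 0 in tRNA, and the median size of a difference was 0.01 in rRNA and 0.018 in tRNA. Pearson's r across sites was 0.99 in rRNA (n = 186 sites) and 0.96 in tRNA (n = 348 sites), where sites of 1 tissue share their libraries and depth. A difference of at least 0.1 was found at 9 rRNA sites, 4.84% of those compared, of which 4 (2.15% of those compared) were higher and 5 (2.69%) lower in the cauline leaf. In tRNA 39 sites, 11.2%, differed by as much, 18 (5.17%) higher and 21 (6.03%) lower. Most of these tRNA sites had failed the filter in at least 1 leaf type. Among sites that passed in both leaf types, 5 of 108 rRNA sites (4.63%) and 13 of 260 tRNA sites (5.0%) differed by at least 0.1. The rRNA sites of that set were all lower in the cauline leaf, and the tRNA sites were 8 higher (3.08%) and 5 lower (1.92%). The tRNA counts are of rows, some of which may share reads. With rows of identical values counted once, 38 of 340 tRNA sites differed by at least 0.1.

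**Figure D1:**
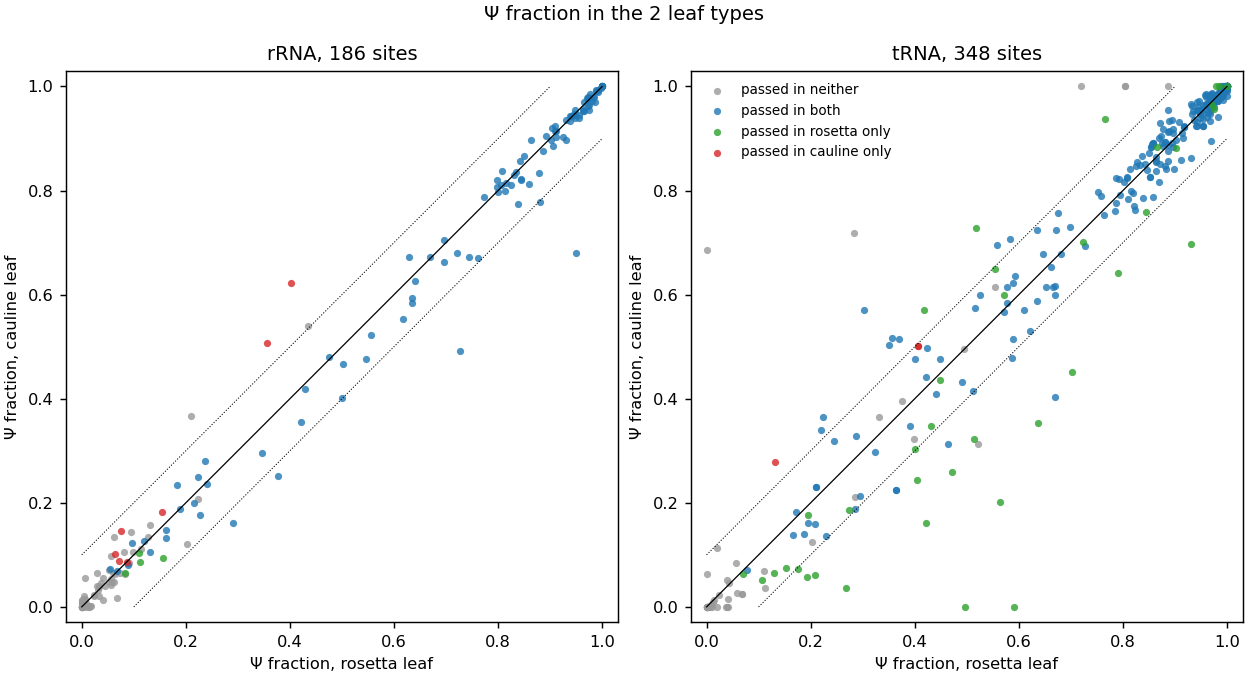
Ψ fraction in the cauline leaf (y axis) against the rosetta leaf (x axis) at 186 rRNA sites (left) and 348 tRNA sites (right), 1 point per site, coloured by the leaf types in which it passed the authors' filter. The solid line marks equal values and the dotted lines a difference of 0.1, outside which lie 9 rRNA and 39 tRNA points.

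Among the 36 pairs of the 9 tissues, the leaf types had the highest r and the smallest share of sites past 0.1 in both tables. The pair was taken up as the closest of the tissues, so this rank describes the choice and is no separate result. The pair with the next smallest share was seedling and shoot, with 6.45% of rRNA sites and 14.9% of tRNA sites past 0.1. By the median size of a difference the leaf pair was the closest in rRNA, but second in tRNA, where seedling and shoot stood at 0.015.

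The differences lay mostly at sites below saturation. None of the 45 rRNA sites and 142 tRNA sites that were at least 0.9 in both leaves differed by 0.1 or more, for which so near the top of the scale there is hardly room. Where the mean of the leaves lay between 0.3 and 0.7, 5 of 20 rRNA sites and 20 of 62 tRNA sites did. With the mean from 0.1 up to 0.3 it was 2 of 25 rRNA sites and 12 of 28 tRNA sites. From 0.7 up to 0.9 it was 2 of 28 rRNA sites and 4 of 70 tRNA sites. With the mean at 0.9 or more it was 0 of 47 rRNA sites and 3 of 153 tRNA sites. With the mean under 0.1 it was 0 of 66 rRNA sites and 0 of 35 tRNA sites. The differing sites were thus mostly ones in which only a part of the molecules carried Ψ. A threshold of 0.1 favours such sites, as there is little room for it at either end of the scale.

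By molecule, 1 of 66 sites in the 18S rRNA (1.52%), 0 of 6 in the 5.8S and 2 of 74 in the 25S part (2.7%) differed by at least 0.1. The chloroplast locus had 2 of 28 (7.14%) and the mitochondrial locus 3 of 11 (27.3%), all 3 of them in helix 69. Over all rRNA sites the share was 4.84%. Among the 108 sites passed in both leaf types, 60 were lower by any amount in the cauline leaf, 40 higher and 8 equal, with a median difference of -0.002.

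The largest rRNA difference was at nuclear 5516 in the 25S part, where the Ψ fraction was 0.680 in the cauline leaf and 0.950 in the rosetta leaf, a difference of -0.27. In the other tissues this site stood at 0.984 in seedling, 0.973 in shoot, 0.947 in seed, 0.907 in root, 0.740 in stem, 0.656 in flower and 0.389 in silique. The cauline leaf thus lay with stem, flower and silique, which were likewise taken after flowering, and the rosetta leaf with seedling, shoot and root, but also with the mature seed. The site passed the filter in all 9 tissues. This grouping was noticed after the values were seen, and no test was made of it. The sign of cauline minus rosetta was set beside that of flower, stem and silique minus seedling and shoot, with root left out. The signs matched at 7 of the 9 rRNA sites past 0.1, and at 5 of the 5 passed in both leaf types. Nuclear 5516, from which the grouping was read, is in both counts, so its match was given in advance. The 5 sites passed in both were all lower in the cauline leaf. The contrast without root was also negative at many sites that hardly differed between the leaves, so the 5 matches cannot show a link. With root beside seedling and shoot the signs matched at 6 of the 9 and 4 of the 5. Over all 164 rRNA sites with a difference in both contrasts, most of them small, they matched at 79 without root. In tRNA, without root, they matched at 20 of 39 sites past 0.1, and at 6 of 13 passed in both. Over all 304 tRNA sites with a difference in both contrasts they matched at 138.

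At nuclear 1874, which is base 35 of the 18S rRNA, the fraction was 0.252 in the cauline leaf and 0.378 in the rosetta leaf. The other tissues ranged from 0.242 in root to 0.469 in seed, so both leaf values lay inside the range of the rest.

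Helix 69 held 12 of the 186 rRNA sites and 5 of the 9 that differed by at least 0.1. Outside it, 4 of 174 sites (2.3%) did. The first uridine of its loop, window base 11, was past 0.1 in each of the 3 genomes, though not in the same direction. In the nuclear rRNA this base, position 6522, had a Ψ fraction of 0.492 in the cauline leaf and 0.726 in the rosetta leaf. It was the lowest value of any tissue, as the others ran from 0.556 in stem to 0.811 in seedling. In the chloroplast rRNA (position 3587) the fraction was 0.162 against 0.290. The root, at 0.111, was the one tissue below the cauline leaf there, and shoot was highest at 0.453. In the mitochondrial rRNA (position 1586) the order was turned, with 0.623 in the cauline leaf and 0.402 in the rosetta leaf. That site passed only in the cauline leaf of the pair and in 4 tissues of 9, so its rosetta value did not pass the authors' filter.

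Within each genome the other bases of the helix differed less than base 11. The mitochondrial base 15 (position 1590) was 0.508 in the cauline leaf and 0.355 in the rosetta leaf, and passed in the cauline leaf only. The mitochondrial base 21 (position 1596) was 0.778 against 0.881. The nuclear base 15 was 0.671 against 0.762 and the chloroplast base 17 was 0.401 against 0.500, both just short of 0.1. All 3 chloroplast sites were lower in the cauline leaf, whereas the nuclear base 21 was slightly higher, at 0.280 against 0.236. At the nuclear base 23 the leaf types were level, at 0.086 and 0.087, below seedling at 0.304 and shoot at 0.401.

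**Figure D2:**
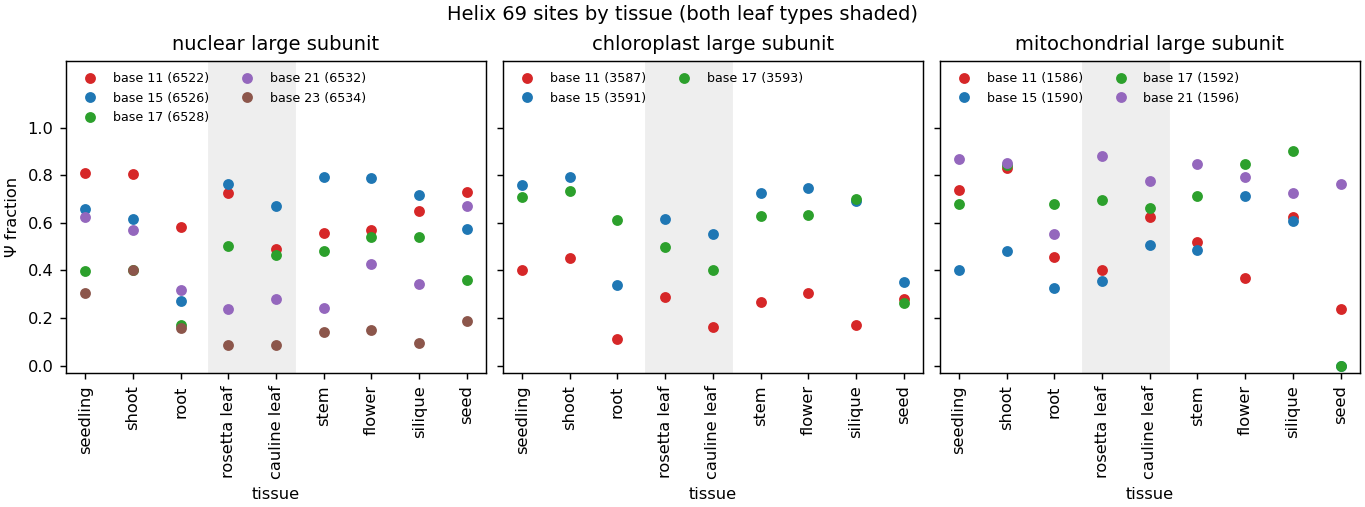
Ψ fraction (y axis) of the 12 helix 69 sites in 9 tissues (x axis) for the nuclear, chloroplast and mitochondrial large subunit, with both leaf types shaded and colours giving the base in the 25-base window and, in brackets, the authors' position. Base 11 is lower in the cauline than in the rosetta leaf in the nuclear (0.492 and 0.726) and chloroplast (0.162 and 0.290) panels and higher in the mitochondrial one (0.623 and 0.402).

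Helix 69 sites are mostly of middle level, so they were also set beside sites of that level elsewhere. Where the leaf mean lay from 0.1 up to 0.7, 4 of 9 helix 69 sites and 3 of 36 others differed by at least 0.1. The helix was not variable in leaves alone. In each of the 36 tissue pairs a larger share of helix 69 sites than of other rRNA sites was past 0.1, with a median of 8 of the 12 per pair, so the 5 of the leaf pair are toward the low end. With so few sites in it, and several adjacent on the same reads, no test was made.

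A pair of differing rRNA sites passed the filter in neither leaf type. Chloroplast 2609 was 0.367 in the cauline leaf and 0.210 in the rosetta leaf, and was listed at 0 in root and silique. Nuclear 1833, the one site upstream of the annotated 18S gene, was 0.539 against 0.435.

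**Figure D3:**
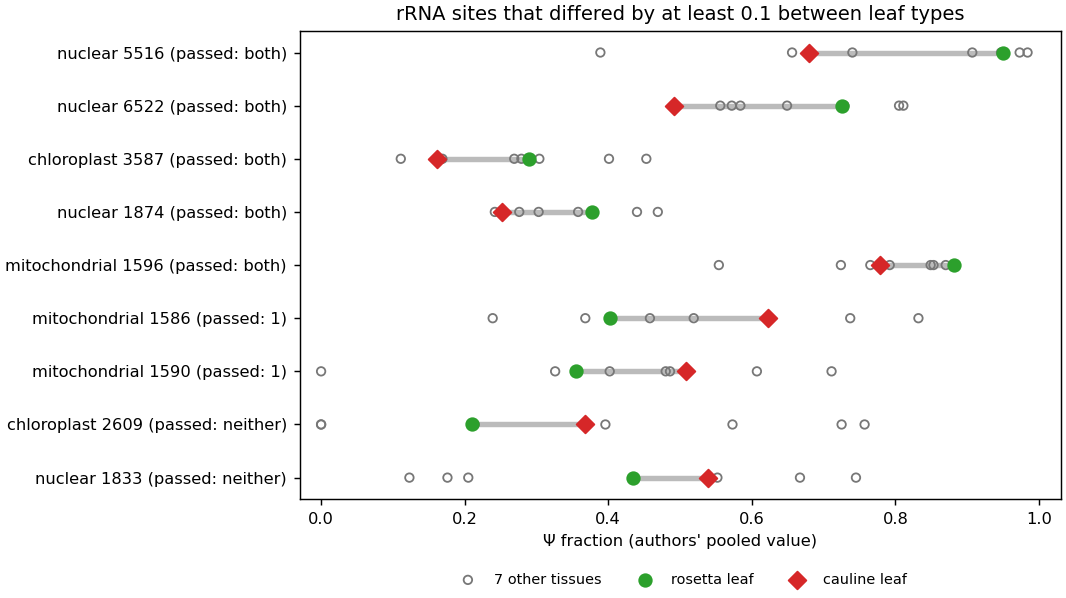
Ψ fraction (x axis) of the 9 rRNA sites that differed by at least 0.1 between the leaf types (y axis, with the number of leaf types in which each passed), as red diamonds for cauline leaf, green circles for rosetta leaf and open circles for the 7 other tissues. The 5 sites passed in both have the diamond to the left of the circle, and the 4 others to the right of it.

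Some rRNA sites that the study discusses were nearly alike in the leaves. Nuclear 2752 and nuclear 3034, both in the 18S rRNA, had fractions of 0.236 and 0.822 in the cauline leaf and 0.240 and 0.844 in the rosetta leaf. Chloroplast 4284 stood at 0.962 in the cauline leaf and 0.972 in the rosetta leaf.

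In tRNA many of the differing sites lay at positions 27 and 28, the first pairs of the anticodon stem. In yeast these positions are among the targets of the synthase Pus1. Of the 46 sites there, 16 (34.8%) differed by at least 0.1, with 7 higher and 9 lower in the cauline leaf, against 23 of 302 (7.62%) at all other sites. Among sites passed in both leaf types it was 7 of 31 against 6 of 229. The 4 of these 7 that were higher in the cauline leaf were the Asn-GTT-4 and Thr-CGT rows, which may share reads. With rows of the same anticodon, genome label and site averaged, 12 of 37 at positions 27 and 28 differed by at least 0.1. Positions 32 and 33 of the loop had a like share, 5 of 16 sites (31.2%), and a larger one among sites passed in both, 4 of 12, or 3 of 11 with rows of identical values counted once. None of 5 sites at position 31, a Pus6 target in yeast, was past 0.1. These are too few to set against the 11.2% of all tRNA sites.

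Positions 27 and 28 also held sites of lower level than the rest. With the leaf mean from 0.1 up to 0.7, 13 of 27 of their sites and 19 of 63 others were past 0.1, a smaller gap than over all sites. Nor was it a matter of leaves alone, since in 34 of the 36 tissue pairs a larger share of sites at 27 and 28 than of other sites was past 0.1.

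At position 55, the T-loop uridine modified by Pus4 in yeast and TruB in E. coli, 5 of 126 sites (3.97%) differed by at least 0.1, and none of the 120 that passed in both leaf types. The median fraction at this position was 0.974 in the cauline leaf and 0.967 in the rosetta leaf. At position 13, a target of Pus7 in yeast, 0 of 21 sites differed. At positions 38, 39 and 40, served by TruA in E. coli, 8 of 52 sites did, of which 1 had passed in both leaf types.

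**Figure D4:**
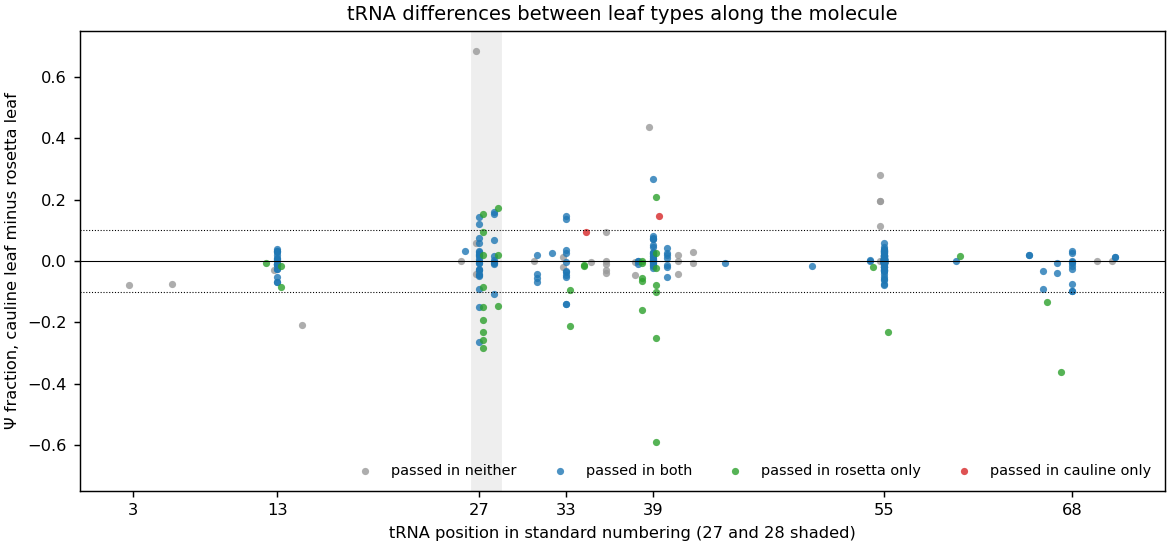
Difference in Ψ fraction, cauline leaf minus rosetta leaf (y axis), by standard tRNA position (x axis), 1 point per numbered tRNA site, coloured by the leaf types in which it passed and shifted slightly sideways by colour. Dotted lines mark 0.1 either way and the shaded band positions 27 and 28, where 16 of 46 points lie outside the lines. At position 55 it was 5 of 126.

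The first base of the anticodon stem of tRNA-Trp was lower in the cauline leaf. At site 26 of Trp-CCA-1, standard position 27, the fraction was 0.404 in the cauline leaf and 0.669 in the rosetta leaf. Among the other tissues it was listed at 0 in seed and ran from 0.578 in silique to 0.822 in flower. The cauline leaf was thus below every other tissue but seed. Trp-CCA-2, with the same arm, gave 0.354 against 0.637 but passed in the rosetta leaf only. In the chloroplast Trp-CCA-3 the same position was 0.848 against 0.826.

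The same position behaved otherwise in tRNA-Thr. Thr-CGT-1 had 0.340 in the cauline leaf and 0.219 in the rosetta leaf. Thr-CGT-2 had 0.365 against 0.223. Thr-TGT-1, whose arm differs, had 0.570 against 0.418 but passed in the rosetta leaf only. The 3 tRNAs were thus all higher in the cauline leaf, though the CGT pair may share reads, and its uridine lies in a run of 2 uridines, so the deletion could belong to either base.

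Rows of tRNA-Asn did not all go the same way. Nuclear Asn-GTT-1 at standard position 27 was lower in the cauline leaf, at 0.313 against 0.464, whereas Asn-GTT-3 was 0.476 against 0.400 at the same position, a difference under 0.1. Both names matched 14 annotated genes each, so they are not shown to be separate genes and may share reads. In the chloroplast Asn-GTT-4, at standard position 28, the fraction was 0.503 in the cauline leaf and 0.351 in the rosetta leaf. The rosetta leaf was below every other tissue there, as the lowest of the rest was silique at 0.500. The Asn-GTT-4 row with the joint nuclear and mitochondrial label gave nearly the same values, 0.516 and 0.356. Both rows have the same anticodon arm, so they may hold the same reads.

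At the 3' side of the stem, position 39 of Tyr-GTA-1-a was 0.570 in the cauline leaf and 0.302 in the rosetta leaf, the largest difference among tRNA sites passed in both. No other tissue reached the cauline value. The nearest were shoot at 0.538 and seedling at 0.507, and silique was lowest at 0.047.

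In the anticodon loop, the uridine before the anticodon differed in 4 rows that passed in both leaf types. Arg-CCT-1 was 0.515 in the cauline leaf and 0.369 in the rosetta leaf, and His-GTG-2 was 0.696 against 0.559. In His-GTG-2 the rosetta leaf was below all other tissues, which ran from 0.717 in stem to 0.847 in shoot. His-GTG-1 lists the same site and matched as many genes, but is not among the named sites. Pro-AGG-1 and Pro-TGG-1 both read 0.225 against 0.364 and had the same values in all 9 tissues, so they count as 1 observation. Each of these uridines lies in a run, and the bases of a run, here positions 32 and 33, cannot be told apart by a deletion. In Arg-CCT-1 and Pro-TGG-1 the run has 3 uridines. It takes in the base before position 32 in Arg-CCT-1 and the first anticodon base in Pro-TGG-1. Position 32 is a known target of the yeast synthases Rib2 and Pus9. The chloroplast Met-CAT-9 at site 40, which matched no annotated gene here, was 0.707 against 0.583. The smallest difference counted among sites passed in both was at site 29 of the chloroplast His-GTG-3, 0.478 against 0.587, and the nearest below the threshold were Arg-CCG-1 at site 68 (0.414 against 0.512) and Gly-CCC-1 at site 66 (0.188 against 0.285).

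**Figure D5:**
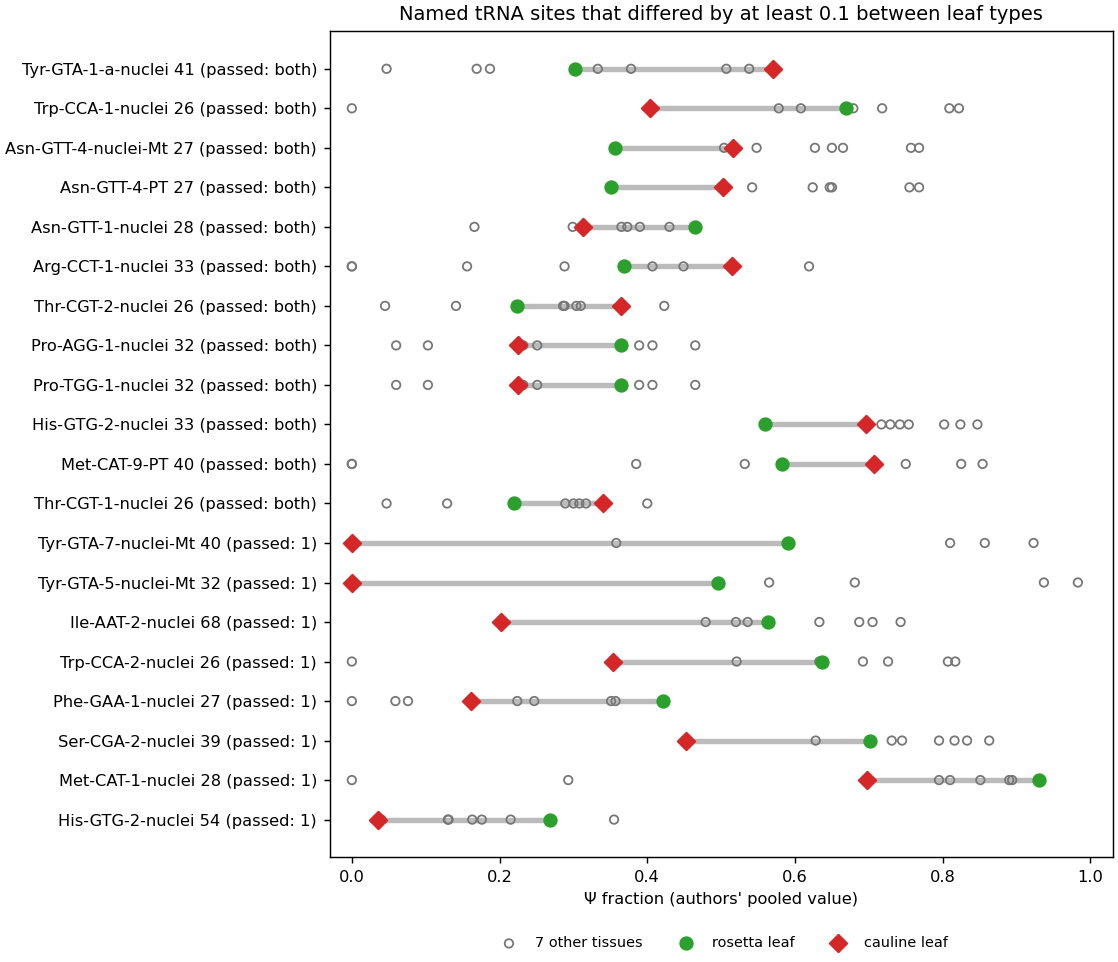
Ψ fraction (x axis) at the named tRNA sites that differed by at least 0.1 between the leaf types (y axis, in the authors' numbering, with the number of leaf types in which each passed), as red diamonds for cauline leaf, green circles for rosetta leaf and open circles for the 7 other tissues. The 12 sites passed in both come first, from 0.570 against 0.302 at Tyr-GTA-1-a, and the 8 passed in the rosetta leaf only have the cauline leaf on the left.

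The filter itself told the leaf types apart more in tRNA than in rRNA. Of the tRNA sites 298 passed in the rosetta leaf and 263 in the cauline leaf, while in rRNA it was 112 and 115. At 38 tRNA sites the rosetta leaf alone passed, and 18 of these differed by at least 0.1, 15 of them lower in the cauline leaf. At 12 of the 38 the difference was under 0.05, so the flag and not the level set them apart. Whether read depth in the cauline leaf had a part in this was not tested.

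The widest differences in this set were values listed at exactly 0, which can be a failed estimate. Tyr-GTA-7 at site 40 and Tyr-GTA-5 at site 32, both with the joint nuclear and mitochondrial label, were listed at 0 in the cauline leaf and at 0.591 and 0.496 in the rosetta leaf. Both were listed at 0 in shoot, root and seed too. Ile-AAT-2 at site 68 had measured values in both, 0.202 in the cauline leaf and 0.563 in the rosetta leaf, and the 7 other tissues ran from 0.479 in stem to 0.743 in shoot. The cauline value was thus the lowest, but it did not pass the filter.

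Further named sites of this kind were also lower in the cauline leaf. Phe-GAA-1 at site 27 was 0.162 against 0.421, and the rosetta value was the highest of any tissue. Ser-CGA-2 at site 39 was 0.452 against 0.702, below all other tissues. Met-CAT-1 at site 28 was 0.698 against 0.931. At site 54 of His-GTG-2, standard position 55, the fraction was only 0.036 against 0.268, far from the median of 0.967 over tRNAs at this T-loop position in the rosetta leaf. The site was low in every tissue, with seed the highest at 0.355. Ser-CGA-1, Ile-AAT-1 and His-GTG-1 list the same sites and matched as many genes as Ser-CGA-2, Ile-AAT-2 and His-GTG-2. Their rows are not among the named sites, so these differences are shown for single rows only.

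Of the tRNA sites that passed in neither leaf type, 7 of 47 differed by at least 0.1, and 6 of the 7 were higher in the cauline leaf. Ser-TGA-2 with the joint label was listed at 0 in the rosetta leaf and at 0.686 in the cauline leaf at site 28. Cys-GCA-1 at site 38 was 0.719 in the cauline leaf and 0.283 in the rosetta leaf. Tyr-GTA-2-d at site 56 was listed at 1 and 0.719. Some other nuclear Cys-GCA and Tyr-GTA rows list the same sites and matched as many genes, so the Cys and Tyr differences are of single rows.

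By genome, 28 of 236 nuclear tRNA sites (11.9%) and 5 of 67 chloroplast sites (7.46%) differed by at least 0.1. It was 0 of 6 mitochondrial sites and 6 of 39 sites with the joint label (15.4%). Over all tRNA sites the share was 11.2%, and the smaller sets hold too few sites to tell genomes apart. The leaf types stood off the rest about equally often. Of the 39 differing tRNA sites, the cauline leaf was farther from the median of the 7 other tissues at 20 and the rosetta leaf at 19, and in rRNA it was 4 and 5 of the 9.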

How the data were processed

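The authors made BID-seq libraries from 100 ng of total RNA per replicate, summed the reads with and without a deletion over both replicates of a tissue, and calibrated the gap ratio to a Ψ fraction. The deposited fraction therefore is 1 value per site and tissue, from 0 to 1, with no SD and no n. The deposited pass flags come from a filter of the authors that rests on p-values, whose thresholds, like the aligner version, are not given in the sources used here. Depth is unknown, so no interval or floor was computed.

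The difference was the cauline leaf fraction minus the rosetta leaf fraction, and 0.1 was the threshold. No test was run. Named sites were, per table, up to 12 past 0.1 passed in both leaf types, 8 passed in 1 and 3 passed in neither, largest first, with those next to the threshold. A few others were named after their values were seen. The sites, lists and threshold were chosen with earlier results of these data known.

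The authors aligned to TAIR10. Sites were placed on TAIR10.1 at the offset that brought most listed positions onto a T. This put 147 of 147 nuclear, 24 of 28 chloroplast and 10 of 11 mitochondrial sites on a T. The next best offset put 51 nuclear, 20 chloroplast and 8 mitochondrial sites on a T. The mitochondrial assembly differs from that of TAIR10. The rDNA and the chloroplast rRNA genes have further copies that cannot be separated. Helix 69 was found by the letters TAACTNT on the strand of the rRNA, with all its T bases listed sites, which occurred once per genome. Of 144 tRNA names, 140 matched annotated genes by amino acid, anticodon and a T at their listed positions, and 316 of 349 sites received a standard position from the anticodon or the 3' end. The meaning of the joint nuclear and mitochondrial label was not given. Python 3.11.15, numpy 2.4.6 and pandas were used, and the counting was tested on simulated data.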

Additional observations from a re-analysis of the deposited data

How the results depend on the processing

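The median differences and the rRNA correlation moved by less than 0.01 under every alternative tried (values of exactly 0 left out, sites passed in both leaf types, nuclear RNA only, mean for the median, Spearman for Pearson, and for tRNA the averaging of isoacceptor rows or counting of identical rows once). The tRNA r moved from 0.96 to 0.98 (0.9778) over sites passed in both. Subtracting the median difference left the counts past 0.1 as they were. The rRNA count of 9 became 5 over sites passed in both and 4 over nuclear RNA, and 25 and 3 at thresholds of 0.05 and 0.2. The tRNA count of 39 became 13 over sites passed in both, 28 over nuclear RNA, and 85 and 16 at these thresholds. With isoacceptor rows averaged it was 28 of 263. For alternatives chosen after seeing the data, the 5 helix 69 sites became 3 passed in both, 1 in nuclear RNA, 8 at 0.05 and 2 at 0.2. Likewise, the 16 tRNA sites at positions 27 and 28 became 7 passed in both, 10 in nuclear RNA, 23 at 0.05 and 5 at 0.2. With isoacceptor rows averaged they became 12 of 37. No paired analysis was possible because the authors pooled the replicates into 1 value per tissue, and for the same reason no replicate could be left out. Without replicate values or depth, no difference here can be set against experimental error.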
